A study of Arabidopsis thaliana with 8 samples.

Results

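The genes described here had expression signals at least 4-fold higher at 22°C than at 26°C in every one of 4 Arabidopsis genotypes. They were chosen by the ratio of 22°C to 26°C signals. After probe sets with several genes or none, and those with the suffix _s_at or _x_at, were set aside, 13230 were left, for 13069 genes. Of these, 4483 had a signal of at least 100 on all 4 arrays at 22°C. Of these 4483, 23 had a log2 ratio of 22°C to 26°C of 2 or more in all 4 genotypes, with signals under 10 set to 10. DFR, UF3GT, AT4G14090, AT5MAT, COR15A and AT5G01870 were among the 23 and were left out, and the remaining 17 probe sets, of 17 genes, are the subject. COR15B and BCAT4 were also to be left out but did not meet the threshold, since their lowest log2 ratios were 1.65 and 1.07. Since the members were selected on the temperature ratios, these are given as a description with no test.

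The study placed shoot apices with leaf primordia of 15-day-old, soil-grown plants on ATH1 GeneChip arrays, with 16 h of light and 8 h of darkness daily, and asked how rh10-1 and as2-1 together alter expression. The 8 groups were the wild type Col-0, the single mutants as2-1 and rh10-1, and the double mutant as2-1 rh10-1, each at 26°C and at 22°C, and each group was 1 array. The as2-1 line had been outcrossed to Col-0 before use. The rh10-1 allele, a temperature-sensitive missense mutation, was found in mutagenised as2-1.

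AS2 is a nuclear protein that acts with AS1 in leaf primordia to repress class 1 KNOX genes and genes of the lower leaf side. RH10 is a nucleolar DEAD-box RNA helicase with a role in the processing of ribosomal RNA precursors. Ambient temperature alters many transcripts in a growing shoot, and flavonoid synthesis, which starts with chalcone synthase and chalcone isomerase, is one pathway whose transcripts are known to be more abundant in cooler plants.

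With 1 array per group, a ratio between single arrays had no replicate check. Each temperature had its own 4 arrays, and so temperature and array set cannot be told apart. The signals were linear GCOS values in which every array had a mean of 198.1 to 198.4 after trimming 2% at each end, and medians were 69.65 to 79.9. Because rh10-1 is a missense allele, the RH10 (AT5G60990) transcript is no check of the labels. Its signals, from Col-0 through as2-1 and rh10-1 to the double mutant, were 347.8, 293.4, 394.1 and 261.1 at 26°C and 352.2, 439.1, 677.1 and 553.8 at 22°C. Of 20 shoot apex markers, 4 could be measured (YAB5, YAB3, PHV and CLV3), none was listed at 0, and their summed signal was 724.0 to 858.7 at 26°C and 852.2 to 1107.3 at 22°C. The root markers PYK10 and EXPA7, 2 of 8 listed, summed to between 4224.9 and 7683.7 at 26°C and between 2246.9 and 2884.5 at 22°C, nearly all of it PYK10, a beta-glucosidase of endoplasmic reticulum bodies. The photosynthesis markers RCA, LHCB4.1 and LHCB4.2, 3 of 10 listed, summed to between 14388.7 and 17956.0 at 26°C and between 14406.6 and 20224.2 at 22°C. The apex sum was higher and the root sum lower at 22°C, and the part of either in the ratios below was not tested. In bulk tissue, fewer cells of a type and less RNA per cell cannot be told apart.

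Of the 17 genes, 4 carried a symbol in the naming table. CHIL encodes a chalcone isomerase-like protein, which in plants promotes flavonoid synthesis without being a catalytic isomerase itself. GSTU20 encodes a tau-class glutathione S-transferase, of a family that joins glutathione to reactive compounds. BGLU47 encodes a beta-glucosidase, of a family that removes glucose from glucosides, and ARPN encodes plantacyanin, a small blue copper protein known for a role in the pistil. The other 13 genes appeared in the tables used here by locus code only, and no role is given for them. In all lists of signals below, the wild type comes first, then as2-1, then rh10-1 and last the double mutant.

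The signals of CHIL were 49.0, 53.9, 62.9 and 25.1 at 26°C and 1168.7, 1692.3, 838.6 and 762.6 at 22°C. At 26°C the double mutant was lowest, and at 22°C as2-1 was highest and both genotypes with rh10-1 lay below Col-0. The log2 ratios of 22°C to 26°C were 4.58, 4.97, 3.74 and 4.93, and the smallest of them, in rh10-1, was 13.3-fold. The signals of GSTU20 were 1128.5, 510.4, 1393.5 and 276.5 at 26°C and 6402.7, 7992.7, 5891.1 and 6312.5 at 22°C. At 22°C all 4 genotypes were close to each other, whereas at 26°C both genotypes with as2-1 were low and both without it were high. The temperature log2 ratios of GSTU20 were therefore 3.97 and 4.51 with as2-1 and 2.50 and 2.08 without it.

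BGLU47 gave 34.9, 21.6, 22.4 and 18.9 at 26°C and 236.5, 320.8, 196.0 and 192.2 at 22°C. Every mutant lay below Col-0 at 26°C, as2-1 alone lay above it at 22°C, and the temperature log2 ratios ran from 2.76 in Col-0 to 3.89 in as2-1. ARPN gave 123.5, 196.4, 187.5 and 224.0 at 26°C and 992.3, 1308.5, 826.4 and 970.3 at 22°C. In contrast to the other 3 named genes, ARPN was lowest in Col-0 at 26°C, and its log2 ratios were 3.01, 2.74, 2.14 and 2.11. The plot of signals shows these 4 genes with the 13 known by locus code.

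**Figure D1:**
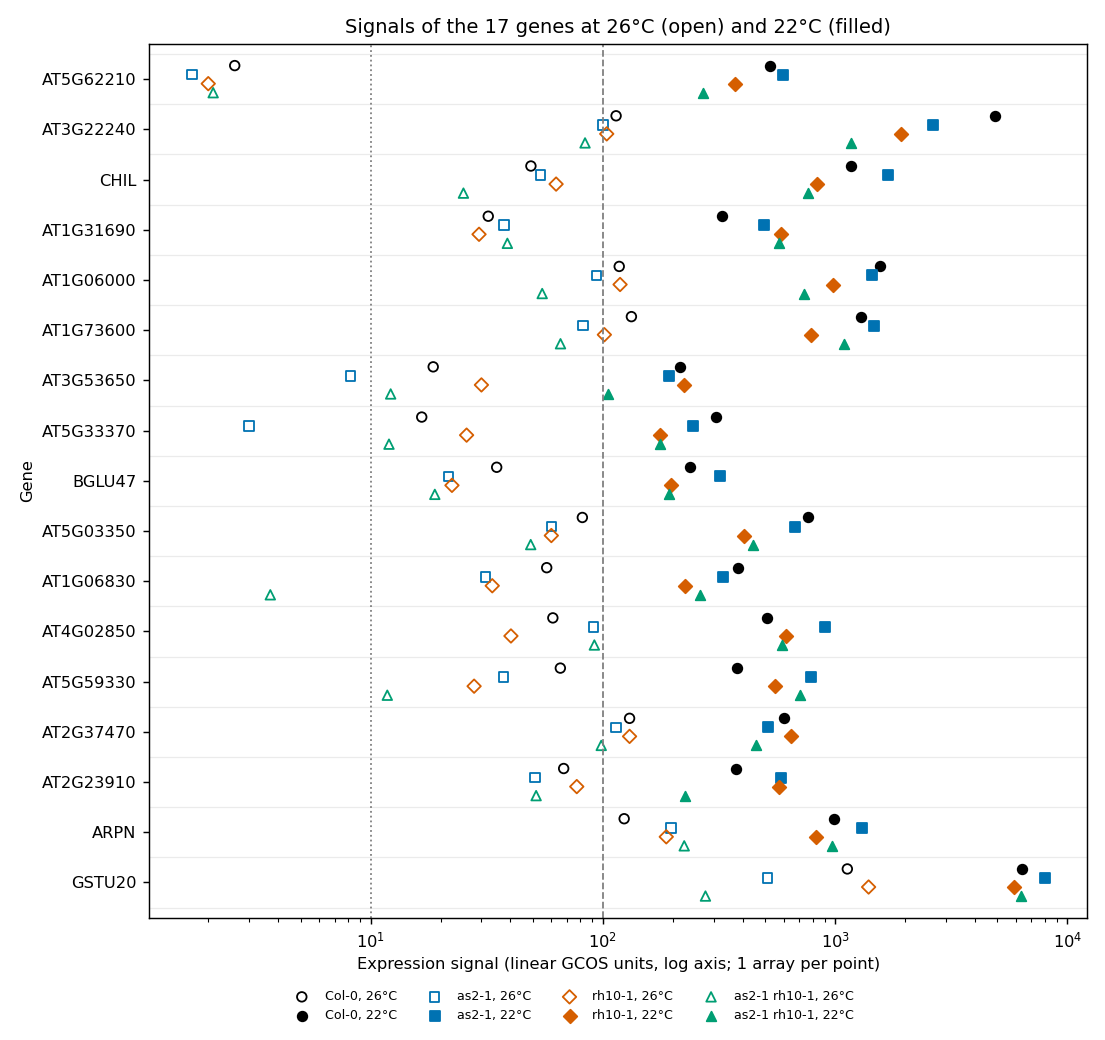
Expression signal of each of the 17 genes on each of the 8 arrays, in linear GCOS units on a log axis, with 1 point per array (open, 26°C; filled, 22°C; circle, Col-0; square, as2-1; diamond, rh10-1; triangle, as2-1 rh10-1). The dotted line is the floor of 10 and the dashed line the minimum of 100 set at 22°C; in every gene the 4 filled points lie to the right of the 4 open points, which the choice of genes requires within each genotype.

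The signals of AT5G62210 at 26°C were 2.6, 1.7, 2.0 and 2.1, whereas at 22°C it gave 523.7, 597.1, 370.3 and 270.2. Since all 4 arrays at 26°C lay under the floor of 10, it was at least 27.0-fold higher at 22°C in as2-1 rh10-1 and at least 59.7-fold higher in as2-1. AT3G22240 gave 114.0, 100.4, 103.9 and 83.8 at 26°C and 4899.8, 2648.7, 1913.4 and 1175.9 at 22°C. The 26°C signals of AT3G22240 were close together, and at 22°C they descended from Col-0 through as2-1 and rh10-1 to the double mutant, so that the temperature ratio was 43.0-fold in Col-0 and 14.0-fold in as2-1 rh10-1.

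AT1G06000 gave 117.6, 93.7, 118.6 and 54.8 at 26°C and 1553.3, 1443.7, 979.4 and 733.6 at 22°C. The double mutant was lowest at both temperatures, and the log2 ratios of 3.72, 3.95, 3.05 and 3.74 differed little among Col-0, as2-1 and as2-1 rh10-1. AT1G73600 gave 132.7, 82.3, 101.5 and 65.7 at 26°C and 1291.8, 1471.3, 788.0 and 1097.0 at 22°C. Here both genotypes with as2-1 had the larger log2 ratios, 4.16 and 4.06, beside 3.28 in Col-0 and 2.96 in rh10-1.

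AT5G03350 gave 81.6, 60.0, 60.0 and 48.9 at 26°C and 766.3, 670.1, 405.6 and 443.6 at 22°C. Col-0 was highest at both temperatures, and the log2 ratios of AT5G03350 lay between 2.76 and 3.48. AT1G06830 gave 57.3, 31.3, 33.4 and 3.7 at 26°C and 381.0, 329.3, 226.1 and 262.9 at 22°C. The double mutant array at 26°C lay under the floor, so that the double mutant ratio of AT1G06830 was at least 26.3-fold, whereas the smallest, in Col-0, was 6.65-fold.

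AT3G53650 gave 18.6, 8.2, 30.0 and 12.2 at 26°C and 215.0, 192.3, 223.4 and 105.6 at 22°C. Its double mutant signal at 22°C was only just above the minimum of 100 and was the one that stood apart from the other three. AT5G33370 gave 16.6, 3.0, 25.9 and 12.0 at 26°C and 305.8, 244.6, 176.3 and 175.6 at 22°C. In both AT3G53650 and AT5G33370 rh10-1 was highest at 26°C and the as2-1 array lay under the floor, and the log2 ratio was smallest in rh10-1, at 2.90 and 2.77.

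AT5G59330 gave 65.6, 37.3, 27.9 and 11.8 at 26°C and 378.7, 783.5, 549.9 and 705.0 at 22°C. All 3 mutants were below Col-0 at 26°C and above it at 22°C, and the log2 ratios were 2.53, 4.39, 4.30 and 5.90. The ratios of AT5G59330 thus spanned 3.37 on the log2 scale, and those of GSTU20 spanned 2.43. Those of AT2G37470 spanned 0.14, with signals of 130.3, 114.1, 130.3 and 98.4 at 26°C and 600.6, 512.3, 644.2 and 457.1 at 22°C, and log2 ratios between 2.17 and 2.31.

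AT1G31690 gave 32.1, 37.5, 29.3 and 38.8 at 26°C and 326.0, 494.4, 586.2 and 572.5 at 22°C. All mutants of AT1G31690 were above Col-0 at 22°C, with a log2 ratio of 22°C to 26°C of 3.34 in Col-0 and 4.32 in rh10-1. AT1G31690 was also measured by another probe set, which gave 4.6, 1.4, 1.0 and 2.9 at 26°C and 32.7, 62.5, 52.9 and 37.4 at 22°C, under the minimum of 100. With the floor of 10 its ratios were bounds of 1.71, 2.64, 2.40 and 1.90, in the same direction.

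AT4G02850 gave 60.9, 91.2, 40.2 and 91.9 at 26°C and 509.0, 907.7, 616.8 and 589.1 at 22°C. Its as2-1 array was highest at 22°C, and the largest temperature log2 ratio, 3.94, was that of rh10-1, where the 26°C signal was lowest. AT2G23910 gave 67.8, 51.1, 77.2 and 51.6 at 26°C and 373.2, 586.3, 574.6 and 225.6 at 22°C. At 22°C both single mutants lay above Col-0 and the double mutant lay below it.

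Over the 17 genes the median log2 ratio of 22°C to 26°C was 3.23 for Col-0 and 3.95 for as2-1, and it was 2.96 for rh10-1 and 3.81 for the double mutant. Over all 4483 probe sets the medians were 0.029, 0.034, 0.067 and 0.12. The ratio was highest in as2-1 for 9 genes, in rh10-1 for 3, in as2-1 rh10-1 for 3 and in Col-0 for 2. It was lowest in rh10-1 for 7, in as2-1 rh10-1 for 5, in Col-0 for 4 and in as2-1 for 1. These counts come from the ratios that chose the genes. The matching shares of the 4483 probe sets were not computed, so the order is not a result about the 17. With signals under 10 set to 10, the ratios of 1 gene differed between genotypes by less than 1 on the log2 scale in 5 genes, by 1 to 2 in 10 and by 2 or more in 2. For AT5G62210, AT3G53650, AT5G33370 and AT1G06830, all within the 10, an array under the floor made the difference inexact, and the genes are not ranked by it. For AT5G59330, 1 of the 2, the double mutant signal at 26°C was 11.8, close to the floor. These differences between genotypes were not tested. The matching shares of the 4483 probe sets were not computed for them either, so their sizes are not a result about the 17.

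**Figure D2:**
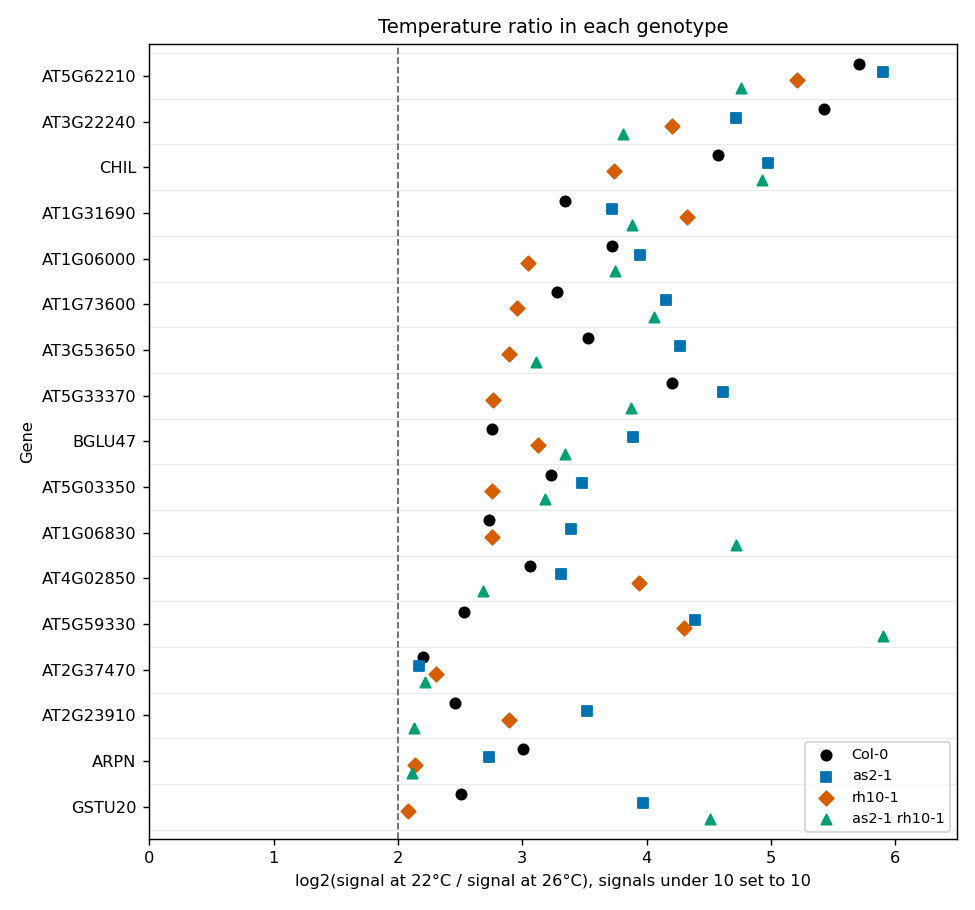
Log2 ratio of the signal at 22°C to that at 26°C for the 17 genes in each genotype, with signals under 10 set to 10 and 1 point per pair of arrays. The dashed line is the threshold of 2 that chose the genes; AT5G62210 lies between 4.76 and 5.90 in all genotypes, AT2G37470 between 2.17 and 2.31, and AT5G59330 spreads from 2.53 to 5.90.

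The share of the 4483 probe sets past the 4-fold threshold was 1.72% (77) for Col-0 and 2.81% (126) for as2-1, 1.61% (72) for rh10-1 and 2.92% (131) for the double mutant, and 0.513% passed in all 4. The members just inside the threshold had lowest log2 ratios of 2.08 (GSTU20), 2.11 (ARPN), 2.13 (AT2G23910), 2.17 (AT2G37470) and 2.53 (AT5G59330). Just outside it were MAP1C at 1.99, AT4G32870 at 1.96, UPP at 1.94, AT5G45700 at 1.94 and ATLP-1 at 1.92. Of the probe sets that missed the threshold in a single genotype, 9 missed it in Col-0, 6 in rh10-1, 7 in as2-1 rh10-1 and 0 in as2-1. With the temperatures exchanged, 44 genes met the rule.

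**Figure D3:**
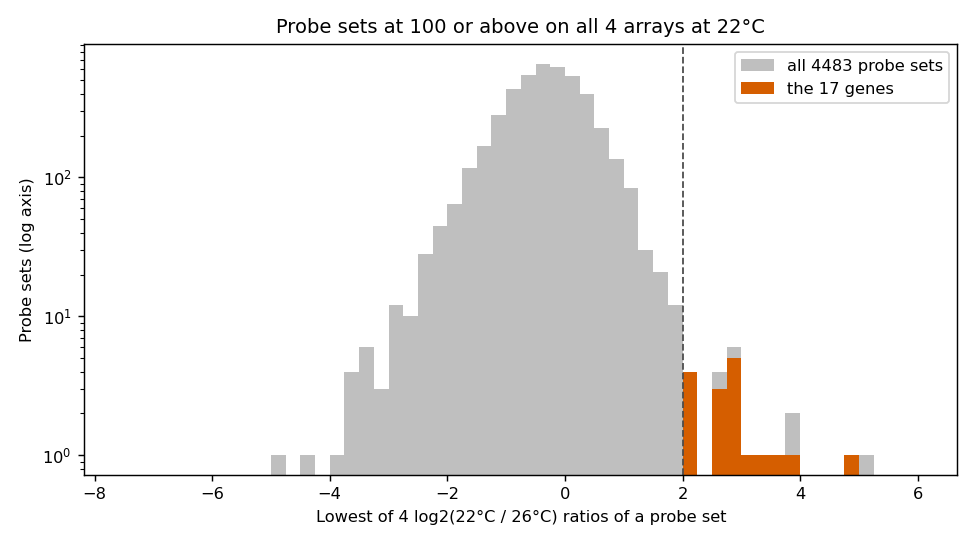
Number of probe sets, on a log axis, by the lowest of the 4 log2 ratios of 22°C to 26°C of each probe set, for all 4483 with a signal of at least 100 on every array at 22°C (grey) and for the 17 genes (orange, drawn over the grey). The dashed line is the threshold of 2; the 17 genes begin at 2.08 and AT5G62210 is the farthest of them, at 4.76.

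How genotype altered these genes was first compared within 22°C, where each mutant was set against the same Col-0 array. The rule required a signal of at least 100 in every genotype at 22°C. A gene that a mutation had taken below that level could not be among the 17. Each signal at 22°C also had to exceed that genotype's own signal at the higher temperature by the set ratio. A gene that a mutation lowered past that limit was excluded too, whereas one that it raised was not. The 4483 probe sets had no such limit, so their shares and medians at 22°C are not a matched comparison. The part of this limit in the counts and medians at 22°C was not tested. In as2-1, 1 of the 17 genes was at least 2-fold higher than in Col-0 (AT5G59330, log2 ratio 1.05), beside 0.535% of the 4483 probe sets, and 0 were at least 2-fold lower, beside 0.112%. In rh10-1, 1 gene was at least 2-fold lower (AT3G22240, -1.36), beside 1.23% of the 4483, and 0 were at least 2-fold higher, beside 2.86%. The median over the 17 genes was 0.19 in as2-1 and -0.27 in rh10-1, and over the 4483 it was -0.018 and -0.032. The rh10-1 median depended on the scaling, and was -0.14 when each array was centred on its median and -0.48 after quantile normalization.

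The double mutant differed more from Col-0 at 22°C. AT3G22240 (-2.06), AT1G06000 (-1.08) and AT3G53650 (-1.03) were at least 2-fold lower, which is 3 of 17 beside 1.18% of the 4483 probe sets, and 2 of 17 under either other scaling. None of the 17 was at least 2-fold higher, beside 1.96%. In all, 14 genes lay below Col-0 in the double mutant beside 51.9% of the 4483, and the median was -0.54 beside -0.022. The 3 genes above Col-0 were AT5G59330 (0.90), AT1G31690 (0.81) and AT4G02850 (0.21).

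Set against as2-1, the double mutant was lower at 22°C in 16 of 17 genes, with a median log2 ratio of -0.60, beside 48.7% of the 4483 probe sets. The exception was AT1G31690, at 0.21. At least 2-fold lower were AT2G23910 (-1.38), AT3G22240 (-1.17), CHIL (-1.15) and AT5G62210 (-1.14), 4 of 17 beside 0.29% of the 4483, and 0 were at least 2-fold higher beside 0.468%. Set against rh10-1, the double mutant was lower in 11 genes beside 52.2%, with a median of -0.034, and 0 were at least 2-fold higher beside 0.602% and 2 at least 2-fold lower beside 0.223%, AT2G23910 (-1.35) and AT3G53650 (-1.08). AT2G23910 thus had a double mutant signal below that of either single mutant, and its log2 ratio departed from the sum of the single mutants by -2.00, the farthest of the 17 at 22°C.

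At 22°C, 11 of the 17 genes were lower with rh10-1 whether AS2 was wild type or mutant, beside 32.7% of the 4483 probe sets, and 1, AT1G31690, was higher in both states. With as2-1, 5 genes were lower in both RH10 states beside 25.3%, and 4 were higher (AT1G73600, AT5G59330, ARPN and GSTU20). The shares of the 4483 probe sets that were higher in both states were not computed. The array with the highest signal at 22°C was as2-1 for 9 of the 17 genes, beside 15.9% of the 4483, and the lowest was as2-1 rh10-1 for 9, beside 24.0%. The double mutant was highest for 0 of the 17, beside 20.6% of the 4483, and as2-1 lowest for 0, beside 17.5%. The spread between the highest and lowest genotype had a median of 0.90 on the log2 scale in the 17 genes and 0.47 in the 4483. These arrays are shared between the comparisons, so that the counts are not separate evidence.

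**Figure D4:**
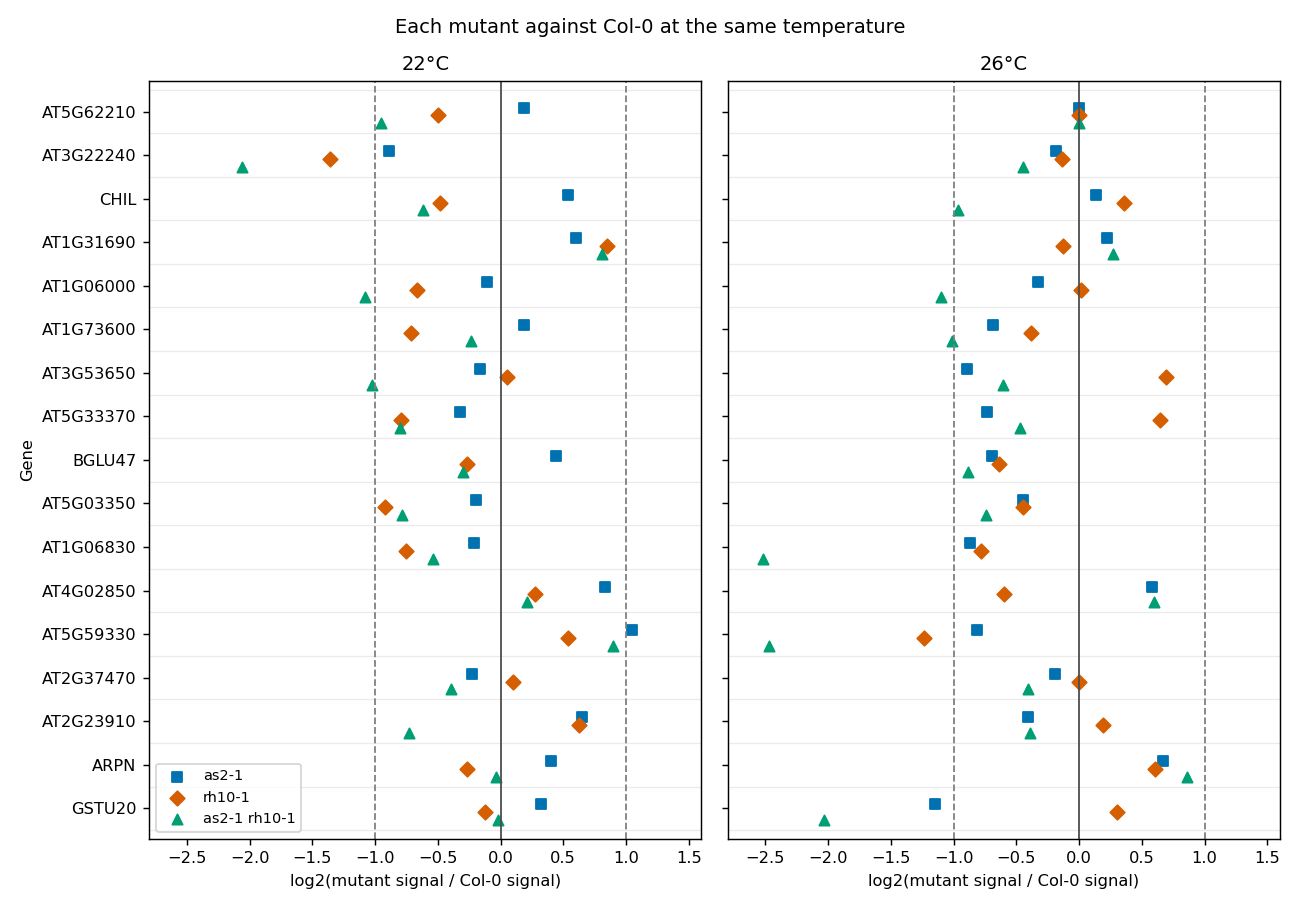
Log2 ratio of each mutant to Col-0 at 22°C (left) and at 26°C (right) for the 17 genes, with signals under 10 set to 10 and 1 array per group (square, as2-1; diamond, rh10-1; triangle, as2-1 rh10-1; dashed lines, 2-fold). At 22°C the triangles lie left of 0 for 14 genes; at 26°C AT1G06830, AT5G59330 and GSTU20 have the lowest triangles, at -2.52, -2.47 and -2.03.

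The same comparisons were made at 26°C. The rule also capped the 26°C signal of each genotype relative to its own signal at the lower temperature. A gene that a mutation raised past that cap could not be among the 17, whereas one that it lowered could. The probe sets set beside them at 26°C had no such cap, so their shares are not a matched comparison. The part of the cap in the counts and medians at 26°C was not tested. In as2-1, 1 gene was at least 2-fold lower than in Col-0 (GSTU20, log2 ratio -1.14), beside 3.14% of the 8467 probe sets above the 40th percentile of an array, and 0 were at least 2-fold higher, beside 2.15%. In rh10-1, 1 gene was at least 2-fold lower (AT5G59330, -1.23), beside 4.18%, and 0 were at least 2-fold higher, beside 3.92%. In as2-1 rh10-1 the number was 5 of 17, beside 7.36%, and 0 were at least 2-fold higher, beside 6.96%. The 5 were AT1G06830 (-2.52, with its double mutant signal at the floor), AT5G59330 (-2.47), GSTU20 (-2.03), AT1G06000 (-1.10) and AT1G73600 (-1.01). The double mutant signal of AT5G59330 was 11.8, close to the floor.

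The medians over the 17 genes at 26°C were -0.41 in as2-1, 0.0 in rh10-1 and -0.61 in the double mutant. The double mutant lay below Col-0 in 13 of 17 genes, beside 51.4% of the 8467 probe sets, and had the lowest signal of the 4 genotypes in 10, beside 31.4%. Lower with as2-1 in both RH10 states were 12 genes, beside 30.4% of the 8467 probe sets, whereas 6 were lower with rh10-1 in both AS2 states, also beside 30.4%. Against rh10-1, 7 genes were at least 2-fold lower in the double mutant (5.13% of the 8467) and 1 was higher (4.41%), AT4G02850 at 1.19. Against as2-1, 0 were at least 2-fold higher (6.21%) and 3 were at least 2-fold lower (5.91%), namely AT5G59330 (-1.66), AT1G06830 (-1.65) and CHIL (-1.10). The values of AT5G59330 and AT1G06830 used double mutant signals near or under the floor. ARPN lay above Col-0 in every mutant at 26°C, with log2 ratios to Col-0 of 0.67 and 0.60 in the single mutants and 0.86 in the double mutant.

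The genotype effects were then tested over both temperatures with limma on log2 signals, which was fitted to 8467 probe sets and all 8 arrays. In a fit with terms for as2-1, rh10-1 and temperature, each mutation was compared as 4 arrays against 4. Arrays of different genotype and temperature stood in for replicates, so that the p-values measure the spread that the fit left between these arrays. That spread includes any dependence of an effect on temperature or on the other mutation. After Benjamini-Hochberg adjustment over all probe sets at a threshold of 0.05, 0 of the 17 genes were called for as2-1, where limma called 0.0354% of the probe sets higher (3) and 0.0% lower (0). At an unadjusted p under 0.05 there were 4 of the 17 lower and 1 higher, beside 2.2% and 3.05% of all probe sets (444 in all). For rh10-1, limma called 0 of the 17, and 0.0945% of the probe sets higher (8) and 0.0236% lower (2), with 6 of the 17 lower and 0 higher at an unadjusted p under 0.05, beside 5.78% and 5.16% of all (926). The 6 were 3 without the as2-1 or the rh10-1 array of 22°C. They were also 3 with no filter on low signals, and 4 with no intensity trend.

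For the double mutant against Col-0, as 2 arrays against 2, limma called 0 probe sets, 0.0%, and at an unadjusted p under 0.05 there were 5 of the 17 lower and 0 higher, beside 4.58% and 3.67% of all (699). The 5 were 3 without the Col-0 array of 26°C. The departure of the double mutant from the sum of the single mutants gave 0 calls. At an unadjusted p under 0.05 there were 2 of the 17 lower (CHIL and AT2G23910) and 0 higher, beside 0.827% and 1.33% of all (183). With no filter on low signals, or with no intensity trend, 0 were lower at that p. The 2 were 0 without the rh10-1 array of 26°C, the Col-0 array of 22°C or the as2-1 array of 22°C, 1 without the double mutant array of 26°C and 3 without that of 22°C.

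The estimates average over both temperatures, between which the single-array medians over the 17 genes differed. For as2-1 these medians were 0.19 at 22°C and -0.41 at 26°C with RH10 wild type, and -0.034 and -0.58 with rh10-1. For rh10-1 they were -0.27 and 0.0 with AS2 wild type, and -0.60 and -0.21 with as2-1. The limits that the rule set on the signals at 22°C and 26°C bear on the estimates too. The estimates were mostly negative. For rh10-1, 14 of 17 were below 0 with a median of -0.41 on the log2 scale, beside 51.4% of all probe sets below 0 and a median of -0.008. The rh10-1 median was -0.24, with 6 genes above 0 and 3 lower at an unadjusted p under 0.05, without the as2-1 array of 22°C, and -0.26 without the Col-0 array of 26°C. The lowest adjusted p of a member for rh10-1 in limma was 0.255, for AT5G03350 (-0.56, SE 0.16). The lowest estimates were those of AT1G06830 (-0.88, SE 0.30), AT3G22240 (-0.73, SE 0.23), AT5G59330 (-0.63, SE 0.41) and AT1G06000 (-0.60, SE 0.19). For as2-1, 14 of 17 were below 0 with a median of -0.20, beside 53.3% and -0.019. The as2-1 median was -0.13 without the rh10-1 array of 26°C, and -0.34, -0.33 and -0.35 without the Col-0 array of 26°C, the Col-0 array of 22°C and the as2-1 array of 22°C. The 4 genes lower with as2-1 at an unadjusted p under 0.05 were 1 without the as2-1 or the rh10-1 array of 26°C and 2 without either double mutant array. They were also 2 with no filter on low signals, and 3 with no intensity trend. Here the range was from -0.86 (SE 0.28) in AT3G53650 to 0.64 (SE 0.20) in AT4G02850, and the lowest adjusted p among the 17 was 0.872.

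The genes above 0 for as2-1 were AT4G02850, ARPN (0.39, SE 0.18) and AT1G31690 (0.30, SE 0.19). For rh10-1 they were AT1G31690 (0.24, SE 0.19), AT3G53650 (0.04, SE 0.28) and ARPN (0.02, SE 0.18). In the double mutant against Col-0, the estimate was -1.53 (SE 0.45) for AT1G06830, -1.25 (SE 0.34) for AT3G22240 and -1.09 (SE 0.26) for AT1G06000, the last with the lowest adjusted p of a member in limma, 0.262. Fitted without the as2-1 rh10-1 array of 22°C, AT1G06830 was called lower in the double mutant by limma (-2.40, SE 0.38, adjusted p = 0.0453), and this comparison then rested on the double mutant array of 26°C, on which its signal was under the floor.

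**Figure D5:**
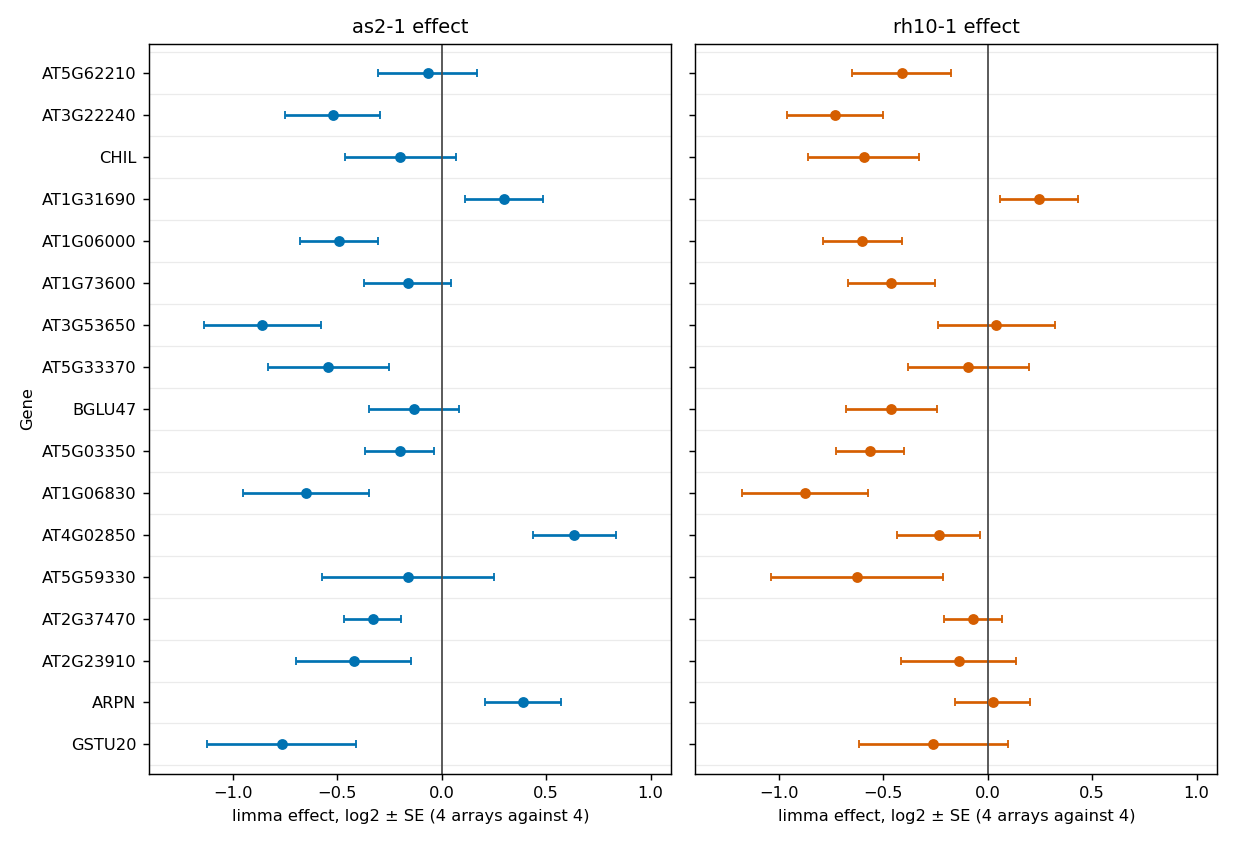
Estimated effect of as2-1 (left) and rh10-1 (right) on the log2 signal of the 17 genes from the limma fit over both temperatures, as points with bars of 1 SE (4 arrays against 4). For each mutation 14 of 17 points lie below 0, and 0 passed the adjusted threshold of 0.05.

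The 17 genes were set beside other genes of related pathways, taken from lists that hold none of the 17. Of 180 listed genes, 25 could be measured here and 22 were fitted, and between 22°C and 26°C limma called 7 of the 22 higher at 22°C and 6 lower, beside 18.8% and 23.5% of all probe sets. In flavonoid synthesis, the pathway of CHIL, 2 of 18 listed genes were measured and both rose at 22°C. UGT78D2, which adds glucose to flavonoids, rose by 2.88 on the log2 scale (SE 0.24, adjusted p = 2.73e-05 in limma), from 111.6 to 196.0 at 26°C to 701.1 to 1251.7 at 22°C. UGT78D1, a flavonol rhamnosyltransferase, rose by 1.76 (SE 0.18, adjusted p = 8.28e-05), from 152.2 to 366.3 to between 581.4 and 1057.1. Neither gene reached 4-fold in every genotype, and the other 16 are not analysed here.

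Among genes of cold response, 5 of 18 were fitted, and 3 were lower at 22°C and 0 higher. The cold genes COR15A and COR15B were not on this list, and both were higher at 22°C in every genotype, with log2 ratios of 2.57 to 3.93 and 1.65 to 3.60. COR27 fell by 2.37 on the log2 scale (SE 0.19), AT4G33980 fell by 2.11 (SE 0.32) and COR47, a dehydrin, fell by 1.98 (SE 0.18). LTI30, another dehydrin, at 0.58 (SE 0.29), and STZ, a zinc finger repressor, at 0.06 (SE 0.74), were not called. The clock gene GI fell by 1.51 (SE 0.40). Both measured starch genes rose, APL3, a subunit of ADP-glucose pyrophosphorylase, by 2.61 (SE 0.44) and SBE2.2, a starch branching enzyme, by 0.41 (SE 0.14). The defensin gene PDF1.2 of the jasmonate list rose by 1.34 (SE 0.31). Of the remaining lists, WRKY53 and SAG101 (immunity), IAA29 (auxin) and AGL24 (flowering) were measured and not called. Of the marker genes, YAB3 (0.63, SE 0.15) and RCA (0.96, SE 0.13) rose and PYK10 (-0.97, SE 0.17) and LHCB4.2 (-0.84, SE 0.25) fell. The apex markers YAB5 (0.30, SE 0.16) and PHV (0.11, SE 0.18) and the photosynthesis marker LHCB4.1 (-0.38, SE 0.17) were not called. Genes of heat shock, floral organs, senescent leaves and the epidermis are not analysed here.

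Other genes of the families of GSTU20 and BGLU47 were taken up after the members were known. Besides GSTU20, 4 tau-class genes were fitted with a median log2 difference between 22°C and 26°C of -0.33, of which GSTU26 rose (2.43, SE 0.36) and GSTU18 fell (-0.61, SE 0.19). The signals of GSTU26 were 9.6, 19.2, 19.4 and 2.1 at 26°C and 84.1, 99.9, 59.5 and 62.1 at 22°C, below the minimum of 100 set by the rule. Besides BGLU47, 9 beta-glucosidase genes were fitted with a median of -0.26. BGLU42 (1.42, SE 0.16) and BGLU15 (0.90, SE 0.30) rose, and BGLU46 (-1.97, SE 0.45) and BGLU16 (-0.56, SE 0.14) fell. BGLU46, known with BGLU45 for hydrolysing monolignol glucosides, gave 32.6, 58.6, 78.1 and 221.7 at 26°C and 20.4, 30.0, 10.1 and 22.6 at 22°C, and its double mutant was highest at 26°C.

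Of the genes next to a member on the chromosome, 14 could be measured and 0 were members. In all 4 genotypes, 1 of the 14 was higher at 22°C and 4 were lower. The higher one was AT4G02840, beside AT4G02850, with log2 ratios of 0.53 to 1.18. The lower ones were AT5G62200 (-1.18 to -0.66) beside AT5G62210, AT1G06010 (-1.15 to -0.51) beside AT1G06000, AT2G37480 (-1.08 to -0.56) beside AT2G37470 and AT1G06840 (-0.71 to -0.17) beside AT1G06830. GSTU21, beside GSTU20, had a highest signal of 24.0 on any array. CYP79A2, beside CHIL, and AT2G23900, beside AT2G23910, reached only 12.2 and 13.1, close to the floor. The matching shares of all probe sets were not computed, so the counts of higher and lower neighbours are not a result about them.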

How the data were processed

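The deposited values were expression signals, linear intensities that the authors computed with GCOS for 22746 probe sets on 8 ATH1 arrays, from RNeasy-extracted RNA labelled with the GeneChip 3′ IVT Express Kit. The scaling target was not given in the sources used here. Detection calls were not used here, so a floor of 10 stood in for a background limit. All 8 columns were used. Of the probe sets, 13513 matched exactly 1 gene in the platform table, and 8730 matched none and could not be named. Those ending in _s_at or _x_at were left out. Coordinates and sequences were not used.

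Signals under 10 were set to 10 before log2. Single-array ratios were described at 2-fold. For limma, probe sets above the 40th percentile of at least 1 array were kept (8467), eBayes used an intensity trend, and residual degrees of freedom were 4 for the additive fit and 3 for the fit of genotype and temperature. Every member was named, as the rule on named genes asks for 40 or fewer, with the 5 probe sets on either side of the threshold and genes of the lists. The members and lists were chosen with earlier results of these data known. R 4.3.3, limma 3.58.1, Python 3.11.15, numpy 2.4.6, pandas 2.3.3 and matplotlib 3.10.9 were used, and the limma procedure was tested on simulated data. The number of arrays limits the precision. Alternatives were other floors, filters, scalings, thresholds and references, 1 probe set per gene, no trend, and leaving out each array.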

Additional observations from a re-analysis of the deposited data

Results flagged for a closer look

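In 5 genes a mutation moved the signal one way at 22°C and the other way at 26°C, in both states of the other gene. These differences were not tested. The share of all probe sets with such a reversal was not computed, so the count is not a result about these genes. For AT5G59330, as2-1 gave log2 ratios of 1.05 and 0.36 at 22°C, with RH10 wild type and mutant, and of -0.81 and -1.24 at 26°C. The value of -1.24 used a double mutant signal of 11.8, close to the floor of 10. The mean as2-1 effect at 22°C exceeded that at 26°C by 1.73. For GSTU20, the tau-class glutathione S-transferase gene, the as2-1 ratios were 0.32 and 0.10 at 22°C and -1.14 and -2.33 at 26°C, a difference of 1.95. For AT1G73600, they were 0.19 and 0.48 at 22°C and -0.69 and -0.63 at 26°C, a difference of 0.99. For AT5G33370, rh10-1 gave -0.79 and -0.48 at 22°C, with AS2 wild type and mutant, and 0.64 and 0.26 at 26°C, a difference of -1.09. The signals of AT5G33370 at 26°C were low, at 3.0 to 25.9, and that of as2-1 was under the floor of 10. The value of 0.26 is therefore set by the floor. For ARPN, the plantacyanin gene, the rh10-1 ratios were -0.26 and -0.43 at 22°C and 0.60 and 0.19 at 26°C, a difference of -0.74.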

How the results depend on the processing

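No paired analysis was possible because each group was 1 array and the labels gave no replicate numbers to pair by. Genotype and temperature, which the arrays share, were terms of the fits. Over 33 results there were 322 alternatives. Of these, 290 values stayed within the spread between arrays (residual SD 0.279 on the log2 scale) or, for counts, within 1.5 times. The other 32 moved further, and 0 took the sign opposite to the main value. The median ratio of rh10-1 to Col-0 at 26°C, 0.0, had no stable sign. It was -0.13 with a floor of 0.1 or at the 20th percentile, and 0.029 after centring on the array median. The number of genes meeting the rule, 17, was 162 at a log2 ratio of 1, 5 at 3, 40 with unnamed probe sets included, and 28 when the Col-0 arrays did not count. Quantile normalization gave 19, without GSTU20. For as2-1, limma called 3 probe sets, but 0 with no filter, a floor of 0.1 or no trend, 1 with a filter at the median and 0 to 1 with an array left out. For rh10-1, limma called 10, but 0 with no filter, 16 after centring on the median and 5 to 13 with an array left out. For the double mutant it called 0, but 5 with no filter and 0 to 38 with an array left out, the 38 without the as2-1 rh10-1 array of 22°C. Among the 17 genes it called 0 to 1 with an array left out, the 1 being AT1G06830 without that same array. The double mutant's median log2 ratio at 22°C, -0.54 against Col-0, was -0.034 against rh10-1. At 26°C it was -0.61 against Col-0 and -0.21 against as2-1, with 5 and 3 genes at least 2-fold lower, and against rh10-1 1 gene was at least 2-fold higher in place of 0. The count at least 2-fold lower in as2-1 at 26°C, 1, was 3 with a floor of 0.1 and 2 with a floor at the 20th percentile. The cause of these shifts was not tested. The median departure from additivity over the 17 genes, -0.24, was -0.53 without the rh10-1 array of 22°C. The low signals at 26°C limit every ratio that uses them.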
